A study of Mus musculus with 12 samples.

Results

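Small nucleolar RNA (snoRNA) genes were followed across 12 mouse testis arrays. They were chosen by symbol, as the genes whose single symbol in the platform annotation begins with Snord or Snora, and there were 73 of them among the 22180 genes measured. Of these, 47 were Snord genes, which encode box C/D snoRNAs, and 26 were Snora genes, which encode box H/ACA snoRNAs. The measured values entered the choice at 1 point only. Snora33 and Snora19 each had more than 1 probe cluster, and the cluster of highest mean level over the 12 arrays was selected, so levels are given as a description and the group differences played no part in the rule. Another 43 clusters carried several symbols including a snoRNA and are not members.

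Each array measured RNA of a whole testis from a C57BL/6N mouse at 2 weeks of age. There were 3 testes of Sox3-KO mice (KO) and 3 of Sox3-Sox2KI mice (KI), both lines made with CRISPR/Cas9. Wild-type testes came from 3 littermates of KI mice (WT 1, WT 2 and WT 3) and from 3 littermates of KO mice (WT 4, WT 5 and WT 6). The sources used here do not give the number of founders behind each line or which animals shared a litter. Sox3 is an X-linked transcription factor gene, and Sox2 is a close relative named in the knock-in allele.

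SnoRNAs are short noncoding RNAs of the nucleolus. Box C/D members guide ribose methylation and box H/ACA members guide pseudouridylation, mostly of ribosomal RNA, and a few members act in cutting the ribosomal RNA precursor. In mammals most are trimmed out of introns of host genes, many of which encode ribosomal proteins or translation factors, while others are long noncoding RNAs whose exons have no known protein. The mature snoRNA is stable, so its level need not follow that of the spliced host transcript.

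Sox3 lay between 6.57 and 6.65 in the KO testes and between 7.21 and 7.36 in the 6 WT testes, on the deposited log2 scale. The array labelled KI 1 had Sox3 at 7.26, within the WT range, against 6.75 in KI 2 and 6.95 in KI 3. The positions of the probes within Sox3 were not known here. Sox2 was at 4.51, 4.31 and 4.16 in KI 1, KI 2 and KI 3. It was at 3.81 to 4.22 in WT and 4.02 to 4.22 in KO. All Sox2 values were under the level of silent genes given below, 5.33. Array medians ran from 5.74 to 5.82. In these whole testes, a lower level cannot be split into fewer cells of a type and less RNA per cell. The mean level of 21 of 22 pachytene genes was 6.00 to 6.62 in KO, 6.80 to 7.24 in KI, 7.20 to 7.62 in WT of KI litters and 6.52 to 7.63 in WT of KO litters. Lists of epididymis (8 of 9 measured) and erythroid genes (3 of 8 measured) had means of 5.15 to 5.54 and 4.76 to 5.26, beside a 95th percentile of 5.33 over 1105 olfactory receptor genes, taken here as the level of silent genes.

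SnoRNA genes were among the brighter genes of the testis. Their median level was 8.89, and 62 of 73 (84.9%) lay above the median of all genes, 6.27. The median was 9.28 for Snord and 7.75 for Snora genes, and 13 of the 17 members above a level of 10 were Snord. These levels are per cluster and not per length, so they do not rank the RNAs by abundance. In RefSeq annotation of GRCm38.p6 the members were 48 to 221 bases long, with a median of 68 for Snord and 118.5 for Snora.

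The brightest cluster was Snora33, within the ribosomal protein gene Rps12. It ranged only from 13.25 to 13.39 over the 12 arrays. The brightest Snord genes were Snord82 (mean 12.32), Snord110 (11.90), Snord87 (11.84), Snord55 (11.83) and Snord99 (11.75). After Snora33 the brightest Snora genes were Snora21 (10.92), Snora23 (10.47), Snora34 (10.21) and Snora15 (9.79). At the other end, Snora19 (5.25), Snora35 (5.07), Snord90 (4.71) and Snord85 (4.03) lay at or under the olfactory receptor background, and 69 members were above it. Snora35 lies within Htr2c, a serotonin receptor gene.

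**Figure D1:**
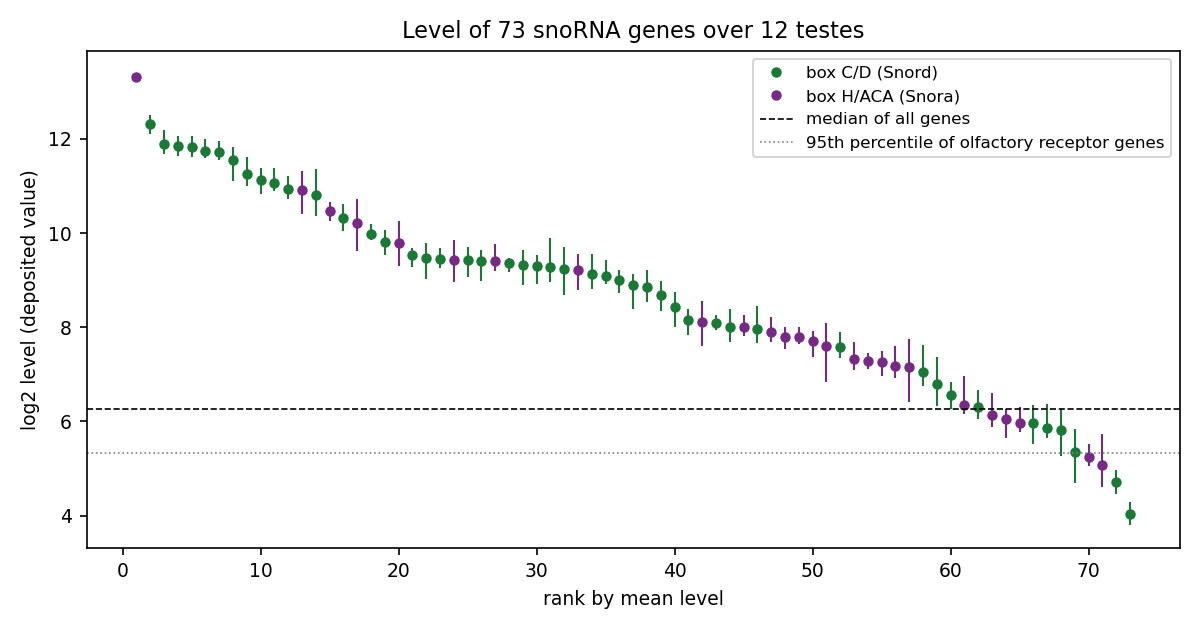
Mean log2 level of each of the 73 snoRNA genes over 12 testes, ranked from highest to lowest, with a line from the lowest to the highest array. Snord genes fill most of the upper ranks, and 4 members lie at or under the dotted background line at 5.33.

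No snoRNA gene passed in either mutant by limma's test with Benjamini-Hochberg adjustment over 22180 genes at 0.05. In KO against all 6 WT testes 0 of 73 members passed, while 4.86% of all genes did, and the lowest adjusted p of a member was 0.153. At an unadjusted p under 0.05 there were 3 members (4.11%), beside 24.2% of all genes. The members' median log2 change was 0.03, with 40 above 0, and that of all genes 0.04. Without KO 1 the members' median was -0.04, with 24 above 0 and 49 below, so the direction rested on that array. No member had all 3 KO testes outside the range of the 6 WT testes, beside 11.5% of all genes. The median 95% interval reached 0.26 to either side of a member's change. For a member with an interval of that width, smaller differences could not be told from 0.

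The KO comparison had Snora16a, Snord104, Snord118 and Snord73a as the members of smallest p. Snora16a, a box H/ACA gene within Snhg12, was at 9.85, 9.41 and 9.77 in KO and between 9.26 and 9.53 in WT. Its KO 1 and KO 3 values were above every WT testis and KO 2 was not. The difference was 0.31 (SE 0.13, limma adjusted p = 0.153), and without KO 2 it was 0.44 and passed (adjusted p = 0.0484). Snord118, needed for maturation of large-subunit ribosomal RNA, was at 6.65, 6.32 and 6.73 in KO and between 6.66 and 7.37 in WT. The ranges overlapped, and the difference was -0.35 (SE 0.15, limma adjusted p = 0.173). Snord104 differed by 0.21 (SE 0.09) and Snord73a by 0.27 (SE 0.13), with limma adjusted p of 0.165 and 0.218.

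In KI against all 6 WT testes 0 of 73 members passed in limma, as did 0% of all genes, and the lowest adjusted p of a member was 0.945. At an unadjusted p under 0.05 there were 5 members (6.85%), beside 5.24% of all genes. Snord genes were mostly on the low side, with 41 of 47 below 0 and a median of -0.09, while 17 of 26 Snora genes were above 0 with a median of 0.07. Among all genes 49.6% were above 0. The Snord median rested on KI 2 and KI 3. Without KI 1 it was -0.16, without KI 2 it was -0.05 and without KI 3 it was -0.03, and 31 of 47 were then below 0 in both of the last fits. The Snora median was -0.00 without KI 1, the array with Sox3 in the WT range, so the opposite signs of the classes rested on that array. At an unadjusted p under 0.05 there were 11 members without KI 1 (15.1%, beside 4.23% of all genes in that fit). There were 0 without KI 3 (beside 3.68%). Whether the classes differ was not tested.

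Snora31, within Tpt1, was at 7.15, 7.15 and 6.97 in KI and between 7.19 and 7.50 in WT, which made it 1 of 2 members with every KI testis outside the WT range. The other was Snora73a, a processing snoRNA within Snhg3, at 7.95, 7.83 and 7.84 in KI and 7.64 to 7.81 in WT. That is 2.74% of members, beside 3.1% of all genes. Snora31 differed by -0.27 (SE 0.09) and Snora73a by 0.16 (SE 0.07), with limma adjusted p of 0.945 and 0.949. Snord1b was at 9.48, 9.15 and 9.03 in KI and 9.30 to 9.67 in WT, an overlap, with a difference of -0.33 (SE 0.12, limma adjusted p = 0.945). Snord23 and Snora19 differed by -0.27 and -0.22.

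KI and KO testes were compared directly, although they also differ in litter origin. No member passed in limma, nor did any gene (0%), and 6 members (8.22%), all lower in KI, had an unadjusted p under 0.05, beside 18% of all genes. Snora16a gave the lowest adjusted p, 0.194, with 9.55, 9.29 and 8.97 in KI against 9.41 to 9.85 in KO and a difference of -0.40 (SE 0.14). The Snord median was -0.12 and the Snora median 0.04, and single arrays moved both. The Snord median was -0.20 without KI 1, -0.06 without KI 3 and -0.07 without KO 1, and the Snora median was -0.03 without KI 1 and 0.10 without KO 1. The count at an unadjusted p under 0.05 was 13 without KI 1 (beside 16.7% of all genes in that fit). It was also 13 without KO 2 (beside 22.6%). It was 2 without KO 1 (beside 13.9%) and 0 without KI 3 (beside 12.4%). It was 3 without KO 3 (beside 12.2%) or KI 2 (beside 13.5%).

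Between the WT testes of the 2 kinds of litter most snoRNA genes differed in 1 direction. Of 73 members, 57 were higher in WT of KI litters, with a median of 0.14 (Snord 0.16, Snora 0.11), whereas the median of all genes was -0.01 and 45.0% of them were above 0. None passed the adjusted test in limma (lowest adjusted p = 0.398), and neither did any gene (0%). At an unadjusted p under 0.05 there were 14 members (19.2%), 13 of them higher in KI litters, beside 5.29% of all genes. The 3 WT testes of KI litters did not overlap the 3 of KO litters for 32 members (43.8%), 27 higher and 5 lower, beside 11.7% of all genes. Leaving out any 1 of the 6 WT arrays left 52 to 59 members above 0 and 9 to 15 at that unadjusted p. The 9 were found without WT 4, beside 4.04% of all genes in that fit. The 15 were found without WT 5, where the share of all genes also rose, to 9.9%. Members move together across arrays and share hosts, so these counts are not independent trials. As another class of short transcripts, 478 microRNA genes had a median of -0.03, with 216 above 0. Of these, 46 (9.62%) had an unadjusted p under 0.05, also more than the 5.29% of all genes.

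Some cell markers also differed between the 2 kinds of litter, but of the marker list means only the Leydig mean separated the WT groups. Of 21 pachytene genes, 20 were higher in WT of KI litters, with a median of 0.45, although none passed in limma and 3 had an unadjusted p under 0.05. The mean pachytene level was 7.48, 7.62 and 7.20 in WT 1, WT 2 and WT 3 and 6.64, 7.63 and 6.52 in WT 4, WT 5 and WT 6. WT 5 thus lay above every WT testis of KI litters. The mean of 8 of 10 Leydig genes was 7.72 to 7.85 in WT of KI litters and 7.86 to 8.35 in WT of KO litters, with no overlap. The Sertoli mean (14 genes) was 9.20 to 9.25 against 9.23 to 9.38, an overlap. The mean of 10 macrophage and immune genes was 6.73 to 7.03 against 6.80 to 6.95. The part of these markers in the snoRNA difference was not tested.

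Snora34, a box H/ACA gene within Kansl2 on chromosome 15, was at 10.58, 10.73 and 10.71 in WT of KI litters and at 9.62, 9.87 and 9.85 in WT of KO litters. The groups did not overlap, and the difference was 0.89 (1.86-fold, SE 0.14, limma adjusted p = 0.398). KI testes had 10.61, 10.26 and 10.35 and KO testes 10.30, 9.86 and 9.79. All 6 testes of KI origin were thus above 5 of the 6 of KO origin, and KO 1 lay just above KI 2.

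Snora15, within the chaperonin subunit gene Cct6a on chromosome 5, had the same order. It was at 10.25, 10.19 and 10.23 in WT of KI litters, and from 9.30 to 9.69 in WT of KO litters. KI testes had 10.10, 9.76 and 9.87 and KO testes 9.77, 9.42 and 9.45, so again KO 1 alone of the KO-origin testes reached the KI range. The WT difference was 0.77 (1.7-fold, SE 0.13, limma adjusted p = 0.408), and without WT 5 it was 0.88 and passed (adjusted p = 0.0301). Snora28, within the translation factor gene Eif5 on chromosome 12, differed by 0.58 (1.5-fold, SE 0.11, limma adjusted p = 0.67). Its levels were 9.44 to 9.54 in WT of KI litters and 8.80 to 8.98 in WT of KO litters.

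Snord22 and Snora69 showed another order, in which the WT testes of KO litters were lowest and KO 2 came next. Snord22, a box C/D gene within Snhg1, was at 11.69, 11.72 and 11.82 in WT of KI litters and at 11.11, 11.20 and 11.23 in WT of KO litters. KO testes had 11.75, 11.32 and 11.67 and KI testes 11.80, 11.60 and 11.56, so every KO testis was above its own WT littermates and KO 2 was the nearest to them. Snora69, within the X-linked ribosomal protein gene Rpl39, was at 7.15, 7.54 and 7.76 in WT of KI litters and at 6.51, 6.41 and 6.67 in WT of KO litters. KO testes had 7.60, 6.73 and 7.65 and KI testes 7.33, 7.17 and 7.41, so KO 2 lay just above WT 4, WT 5 and WT 6 and below all other testes. The WT differences were 0.56 for Snord22 (1.48-fold, SE 0.11, limma adjusted p = 0.67) and 0.96 for Snora69 (1.94-fold, SE 0.22, limma adjusted p = 0.891). With Snora75 (0.52), these were the 6 members that differed by more than 0.5, and all 6 were at least 100 bases long, as were 26 of the 73. Across the 73 members length and difference had a Spearman rho of 0.12, given as a description.

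**Figure D2:**
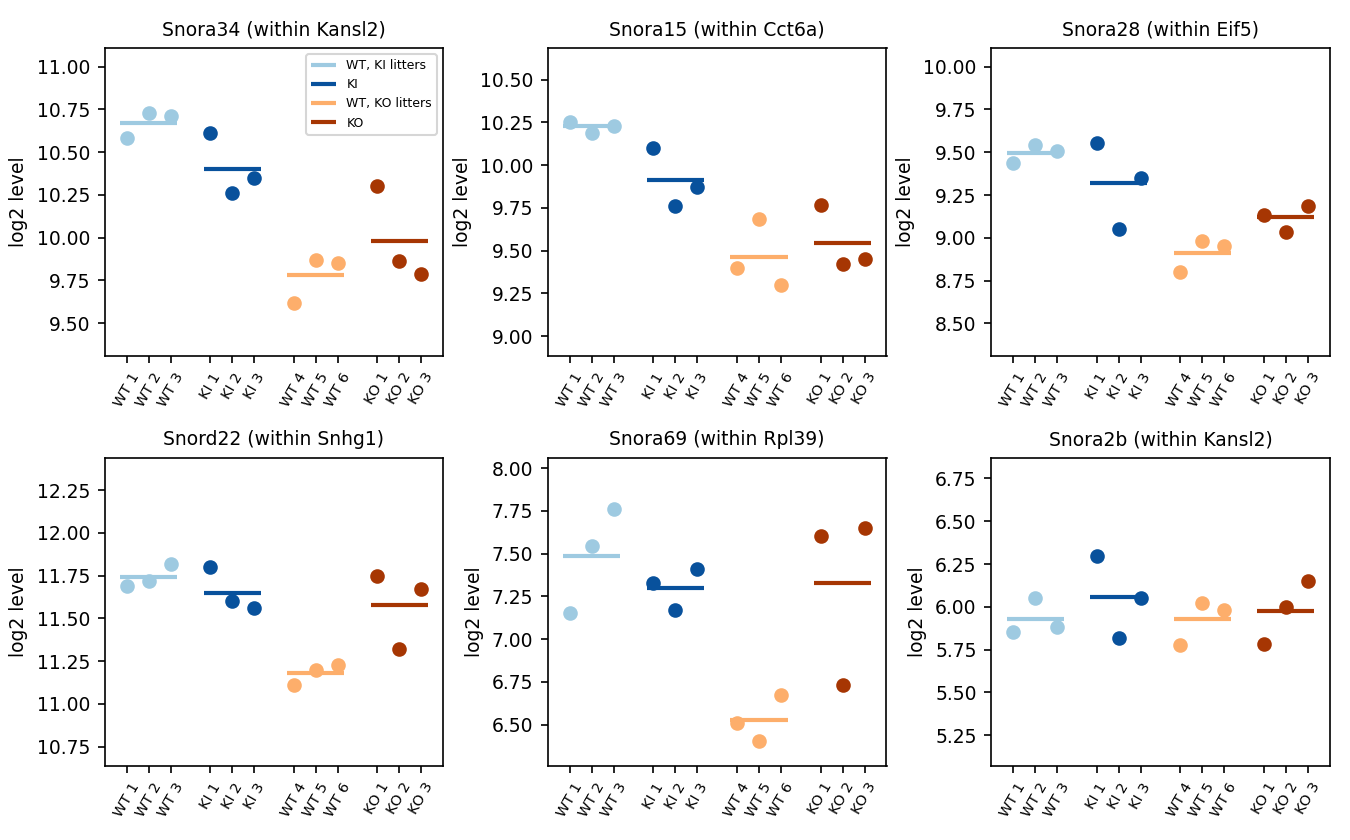
Log2 level in each testis, with bars at group means, for 5 snoRNA genes with the widest or most regular WT difference and for Snora2b, which shares the gene Kansl2 with Snora34. Each panel spans the same height on its log2 axis. Snora34 and Snora15 are high in both groups of KI origin, Snord22 and Snora69 are lowest in WT 4, WT 5 and WT 6, with KO 2 next, and Snora2b shows no split.

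Litter origin was also averaged over WT and mutant testes, where origin and mutation go together in the mutants. In limma 0 of 73 members passed (lowest adjusted p = 0.105, for Snora34 and Snora15), as did 0% of all genes. At an unadjusted p under 0.05 there were 10 members (13.7%), all higher in KI litters, beside 17.4% of all genes. No member separated all 6 testes of KI origin from all 6 of KO origin, beside 0.924% of genes. The averaged difference was 0.66 for Snora34 (SE 0.10), 0.56 for Snora15 (SE 0.09), 0.39 for Snora28 (SE 0.08) and 0.32 for Snord22 (SE 0.08). Snora34 and Snora15 passed once dim genes were left out (limma adjusted p = 0.0299 each among genes above the median level, where 1.78% of genes passed). They also passed without WT 5 (beside 4.1% of all genes) and without KO 2 (beside 1.65%). Snora28 passed among genes above the median level (limma adjusted p = 0.0454) and without WT 5 (limma adjusted p = 0.0317). The Snord median was 0.00 and the Snora median 0.07.

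Each mutant was then set against its own WT littermates. These comparisons share their WT arrays with the comparison of WT litters, so a high set of WT 1 to WT 3 by itself lowers KI and a low set of WT 4 to WT 6 raises KO. In KO against its littermates 0 of 73 members passed in limma, beside 0.00902% of all genes, and 7 (9.59%) had an unadjusted p under 0.05, beside 15.7%. Members were above 0 in 50 of 73 cases with a Snord median of 0.08 and a Snora median of 0.11, but without KO 1 the medians were -0.00 for both classes and 36 of 73 were above 0. The KO testes did not overlap their littermates for 8 members (11%), beside 17.3% of all genes. Snora69 differed by 0.80 (SE 0.22) and Snord22 by 0.40 (SE 0.11), each with a limma adjusted p of 0.165, and without KO 2 they passed at 1.10 (adjusted p = 0.0187) and 0.53 (adjusted p = 0.0285). Snord85 and Snord90, both under the background level, differed by -0.27 each.

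In KI against its littermates 0 of 73 members passed in limma (lowest adjusted p = 0.93), as did 0% of all genes. There were 60 members below 0, 43 of them among the 47 Snord genes, with medians of -0.16 for Snord and -0.06 for Snora. At an unadjusted p under 0.05 there were 7 members (9.59%), all lower in KI, beside 4.51% of all genes. That count turned on single arrays. It was 20 without KI 1 (27.4%, beside 3.65% of all genes in that fit). It was 3 without KI 2 (beside 5.85%) and 1 without KI 3 (beside 3.57%). It was 1 without WT 1 (beside 3.84%), 4 without WT 2 (beside 4.16%) and 3 without WT 3 (beside 4.01%). The Snord median was -0.23 without KI 1, -0.09 without KI 2 and -0.10 without KI 3, with 40 to 44 Snord genes below 0. KI testes did not overlap their littermates for 8 members (11%), beside 14.4% of all genes. Snord1b was at 9.48, 9.15 and 9.03 in KI and 9.60 to 9.67 in littermates, with no overlap, a difference of -0.41 (SE 0.14, limma adjusted p = 0.93). Snora15 differed by -0.32, Snord118 by -0.35 and Snord17 by -0.18.

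The difference between the mutant effects, each taken within its own litters, was below 0 for 65 of 73 members. The median was -0.26 for Snord (44 of 47 below 0) and -0.10 for Snora (21 of 26 below 0), against -0.02 for all genes. No member passed in limma (lowest adjusted p = 0.847), nor did any gene (0%), and 15 members (20.5%), 13 of them below 0, had an unadjusted p under 0.05, beside 5.83% of all genes. Without KO 1 the Snord median was -0.15 and 6 members had such a p (beside 5.46% of all genes in that fit). The count was 6 without KI 2 (beside 5.6%) and 5 without KI 3 (beside 4.46%). It was 23 without KI 1 (beside 5.96%) and 18 without KO 2 (beside 10.4%). Members below 0 numbered 55 to 66 with any 1 array left out. The members of smallest p were Snora69 (-0.98, SE 0.31), Snord22 (-0.49, SE 0.16), Snord82 (-0.37, SE 0.13) and Snord17 (-0.29, SE 0.11), each with a limma adjusted p of 0.847. The difference uses all 4 groups, so the spread between WT litters is part of it.

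**Figure D3:**
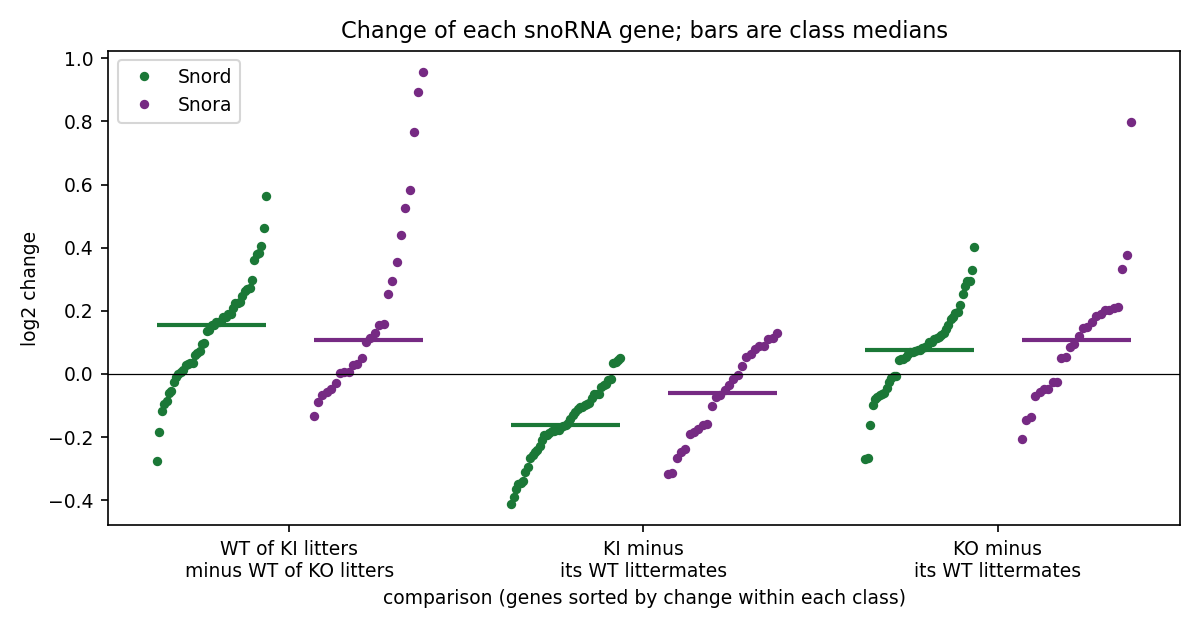
Log2 change of each Snord and Snora gene in 3 comparisons, sorted within class, with bars at class medians. The points sit mostly above 0 between WT litters (medians 0.16 and 0.11), mostly below 0 for KI against its littermates (-0.16 and -0.06) and mostly above 0 for KO against its littermates (0.08 and 0.11), and the comparisons share WT arrays.

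Snord genes moved together from testis to testis more closely than Snora genes, a difference that was not tested. Over the 12 arrays the median Pearson r between pairs was 0.42 within Snord (1081 pairs), 0.12 within Snora (325 pairs) and 0.19 between the classes, against 0.02 for pairs among every 20th gene of the table. With the 4 group means taken out, these were 0.45, 0.20 and 0.27, so the joint movement was present among testes of the same group. These correlations are a description, and the pairs share arrays and labelling.

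KO 1 and KI 1 stood high among the mutants. The mean deviation of the 47 Snord genes from their own 12-array means was 0.18 in KO 1, -0.08 in KO 2 and -0.01 in KO 3, and 0.10 in KI 1, -0.12 in KI 2 and -0.19 in KI 3. In KO 1 41 of 47 Snord genes were above their own mean, in KI 1 39, in KI 2 7 and in KI 3 6. The WT testes of KI litters were at 0.07 to 0.11 and those of KO litters at -0.09 to 0.03. For Snora genes WT testes of KI litters lay at 0.08 to 0.12 and those of KO litters at -0.16 to -0.08, with KO at 0.13, -0.09 and -0.06 and KI at 0.10, -0.02 and -0.00. For Snord the SD was 0.14 within KO and 0.15 within KI, against 0.02 and 0.07 within the WT groups and 0.08 over all 6 WT testes. For Snora it was 0.12 within KO and 0.07 within KI, against 0.02 and 0.04 within the WT groups and 0.12 over all 6, and no difference in spread was tested. KI 1 is also the array with Sox3 in the WT range. It had the highest Sox2 value of the 12 as well, 4.51, though under the background level. KO 1 had the lowest pachytene mean of the 12, 6.00. The part of Sox3, Sox2 or the pachytene genes in the snoRNA levels was not tested.

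**Figure D4:**
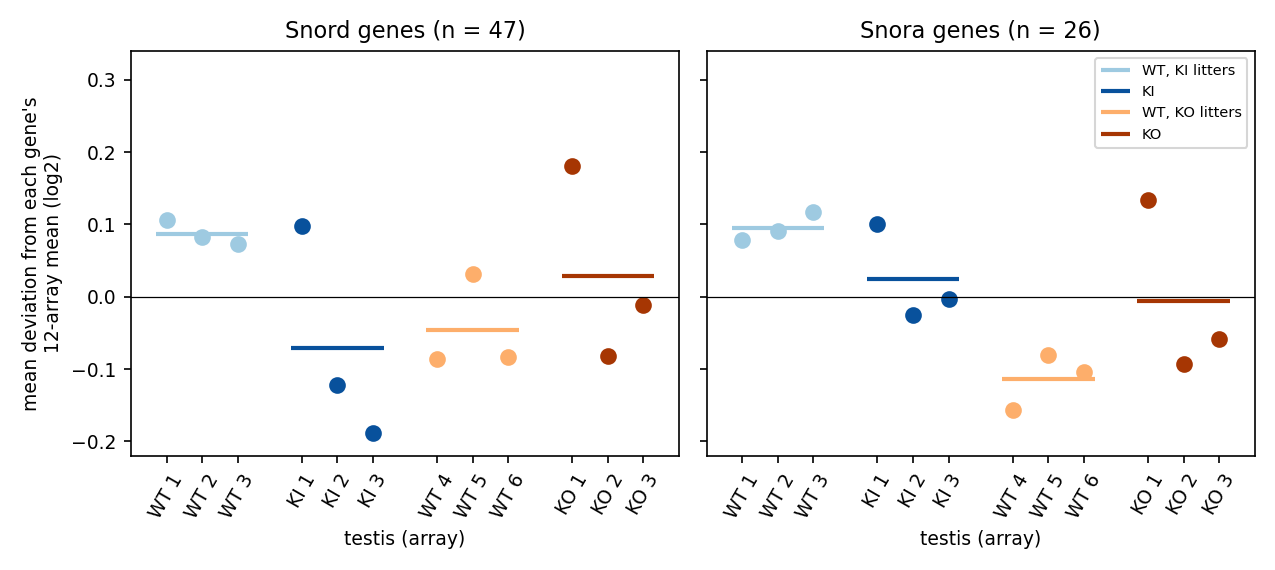
Mean deviation of Snord genes (left) and Snora genes (right) from each gene's own 12-array mean, per testis on a log2 axis, with bars at group means. In both panels KO 1 and KI 1 are above the other testes of their groups. The WT testes of KI litters are above those of KO litters in both panels too.

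The gene whose level was most like the Snord mean over the 12 arrays was Rnu3a (r = 0.89), which itself encodes a box C/D snoRNA that takes part in cutting the ribosomal RNA precursor and which the symbol rule leaves out. It was at 8.26 in KO 1 and 7.69 in KI 3, its highest and lowest values. Next came Gm14459 (0.88), Tlcd1 (0.86), Zfp108 (0.85) and Lcn11 (0.84). Of 5 genes for the related RNAs of Cajal bodies (Scarna), 1 was higher in WT of KI litters, and their median was -0.04. Scarna17 was at 10.34 to 10.36 in WT of KI litters and 10.61 to 10.72 in WT of KO litters, the reverse order of Snora34, and all 6 testes of KI origin (10.17 to 10.40) were below all 6 of KO origin (10.61 to 10.83). Its averaged origin difference was -0.42 (SE 0.06, limma adjusted p = 0.105). Scarna17 is no member and was singled out after its values were seen.

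The clusters with several symbols, 16 of which included Snord116, were compared as a set of their own. In the WT comparison 39 of 43 were above 0 with a median of 0.10, and none passed in limma. At an unadjusted p under 0.05 there were 3, beside 5.28% of all 41345 clusters in that fit. In the difference of mutant effects 4 of 43 were above 0 with a median of -0.31, and none passed in limma. Here 4 had an unadjusted p under 0.05, beside 5.36% of all clusters. They are measured on the same arrays as the members and are no independent sample.

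Host genes were taken as the genes whose span encloses the snoRNA in RefSeq annotation of GRCm38.p6, and strand could not be checked. There were 70 members inside a gene and 3 in none, Snord13, Snord118 and Snord89. Snord13 and Snord118 are known to be transcribed from promoters of their own. Of the 62 enclosing genes, 47 were on the array with a symbol of their own, and 14 of the 62 were long noncoding RNA genes.

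The members with wide WT differences had hosts with smaller differences, from -0.14 to 0.12. Of these hosts Snhg1 and Eif5 lay outside the quartiles of all genes, -0.10 and 0.07. Kansl2 differed by -0.08 between WT litters while Snora34 differed by 0.89, and Snora2b, in the same gene, differed by 0.00. Cct6a differed by 0.02 beside 0.77 for Snora15, Eif5 by 0.12 beside 0.58 for Snora28, Snhg1 by -0.14 beside 0.56 for Snord22, and Rpl39 by -0.04 beside 0.96 for Snora69. Ncl, which encodes nucleolin, differed by -0.02, beside 0.52 for Snora75 and 0.23 for Snord82. Over the 61 pairs of a member with a measured host, the median r across 12 arrays was 0.20, and host changes between WT litters had a median of -0.02 and ranged from -0.39 to 0.37. The lowest was Snhg12, which encloses Snora16a, Snora44, Snora61 and Snord99. It had an SE of 0.09 and an adjusted p of 0.891 in limma, and its snoRNAs differed by 0.13, 0.03, -0.13 and 0.19. The long noncoding hosts as a list ran against the snoRNAs here. Their mean level was 7.14 to 7.18 in WT of KI litters and 7.23 to 7.30 in WT of KO litters, with no overlap. Of 20 such hosts 14 were below 0 with a median of -0.10, though none passed in limma. At an unadjusted p under 0.05 there were 3 (15%), beside 5.29% of all genes.

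**Figure D5:**
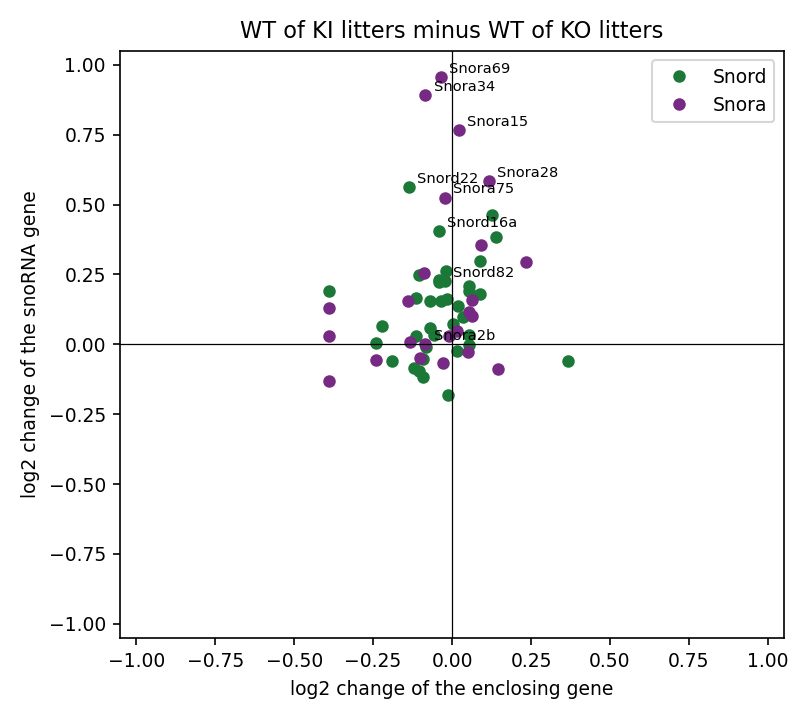
Log2 change between WT litters of each snoRNA gene (vertical axis) against that of its enclosing gene (horizontal axis), for 61 pairs, on equal scales. The wide changes of Snora69, Snora34, Snora15, Snora28 and Snord22 stand over host changes between -0.14 and 0.12.

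In KO against all WT 3 of the 47 measured enclosing genes passed in limma, beside 4.86% of all genes. Zbed3 rose by 0.36 (adjusted p = 0.0416) and 2410006H16Rik, a long noncoding host, rose by 0.40 (adjusted p = 0.0402), while Mcmdc2, a meiotic gene, fell by 1.33 (adjusted p = 0.0346). The snoRNAs inside them did not pass. Snora47 in Zbed3 was at 0.14, Snord49a, Snord49b and Snord65 in 2410006H16Rik at -0.04, 0.10 and 0.08, and Snord87, which lies in Mcmdc2 and in Snhg6, at 0.08. Of 20 measured long noncoding hosts of 25 listed, 18 were above 0 in KO with a median of 0.19. Among all genes 59.8% were above 0, with a median of 0.04. In limma 1 of the 20 passed, beside 4.86% of all genes. This was Snhg14, host of the Snord115 and Snord116 families. It rose by 0.57 (SE 0.14, limma adjusted p = 0.0404) at a level of 5.18, under the background percentile. Sertoli (2 of 14), Leydig (1 of 8) and early meiotic genes (18 of 23 fell) also changed in KO, and their part in the host changes was not tested.

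None of the measured proteins that bind or assemble snoRNAs passed the test. Of 9 core proteins 8 were measured, among them Nop56 and Nop58 of box C/D particles and Dkc1, the pseudouridine synthase, and Gar1 of box H/ACA particles, and none passed in limma in any of the 8 comparisons. In KO against all WT none of the 8 had an unadjusted p under 0.05, beside 24.2% of all genes. Their mean level was 8.99 to 9.10 in every testis. In KI against KO 1 of the 8 had such a p, Nop56 (-0.23, SE 0.08, limma adjusted p = 0.181), beside 18% of all genes. Nop56 was also the 1 with such a p for litter origin averaged over WT and mutants (-0.16, SE 0.05, limma adjusted p = 0.185), beside 17.4%. Of 20 assembly and processing factors 19 were measured and none passed in limma in any comparison. In KO against all WT 2 of the 19 (10.5%) had an unadjusted p under 0.05, beside 24.2% of all genes. They were Taf9 (-0.41, SE 0.13, limma adjusted p = 0.0762) and Parn (0.15, SE 0.06, limma adjusted p = 0.169).

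Host promoters were read because members of the same class moved together across testes. Ribosomal protein genes and several snoRNA hosts are known to begin transcription in a run of pyrimidines. RefSeq windows on GRCm38.p6, matched by symbol for 48 hosts with 52 windows of 300 bases, were searched on the transcribed strand for an unbroken run of at least 5 bases, each C or T, that touches the 5 bases on either side of the start. It was present in 26 of 52 host windows (50%) and in 31.4% of all 32851 windows. The lines below give 40 bases before and 20 after the start for the host of Snord22, for Gas5, the host of Snord47, as another long noncoding host, and for the 3 protein-coding hosts of Snora34, Snora15 and Snora28. Capitals mark the longest such run, also where it is shorter than 5.
Snhg1, plus strand, chr19:8723447-8723506: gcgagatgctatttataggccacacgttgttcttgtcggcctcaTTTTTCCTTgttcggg
Gas5, plus strand, chr1:161035126-161035185: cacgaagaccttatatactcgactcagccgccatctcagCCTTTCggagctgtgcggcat
Kansl2, minus strand, chr15:98534250-98534309: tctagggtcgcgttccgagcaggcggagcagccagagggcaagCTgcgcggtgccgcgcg
Cct6a, plus strand, chr5:129787316-129787375: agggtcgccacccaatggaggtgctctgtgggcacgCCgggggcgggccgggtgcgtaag
Eif5, plus strand, chr12:111538061-111538120: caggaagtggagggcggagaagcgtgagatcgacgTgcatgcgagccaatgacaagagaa
The run is 9 bases in Snhg1 and 6 in Gas5, and at most 2 in Kansl2, Cct6a and Eif5. Rpl39 and Ncl, which enclose Snora69 and Snora75, are not among the printed windows. The hosts of wide WT differences printed here thus include windows with and without a run. These letters are a description of the windows only.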

How the data were processed

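Expression was measured on 12 Affymetrix whole-transcript arrays, 1 testis each. The labels' protocols name Trizol extraction, an RNeasy mini column with DNase treatment, and the WT PLUS labelling kit. How much of the short RNAs such columns retain was not examined. The deposited values are log2 expression per transcript cluster (0.915 to 13.93, 41345 clusters). Per the submitters' processing notes the tools were Affymetrix Expression Console, RMA and Partek 6.6. Their background correction, filters and annotation release were not given in the sources used here. Since RMA brings all arrays to the same distribution, changes are relative.

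Clusters with 1 symbol (23521) gave 22180 genes, by the cluster of highest mean. Two-sided tests used lmFit and eBayes of limma 3.58.1 under R 4.3.3, with Benjamini-Hochberg adjustment over all genes. Mutants against 6 WT and against each other came from a fit of 3 genotype groups, and comparisons within or between litters from a fit of the 4 label groups. SEs and intervals are limma's. The labels call the replicates biological. Levels, counts and correlations were computed in Python 3.11.15 with pandas 2.3.3 and numpy 2.4.6, and drawn with matplotlib 3.10.9.

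The members, gene lists and tests were chosen with earlier results of these data known. Named genes were, per comparison, the 4 members of smallest p where none passed, the 5 brightest Snord and Snora genes, list members of smallest p where a list member passed, and hosts. Others were named after their values were seen, among them Snora75, Snora73a, Snora2b, Snora35, Scarna17, Taf9 and Parn. The planned rule of a host on the same strand could not be applied, since the table of genes used gives no strand. On simulated data for the WT litters (22180 genes, 200 changed), limma recovered 43.2% of 1.41-fold and 86.4% of 2-fold changes, and 6.4% of calls were false. The simulated noise was normal and independent between genes, whereas Snord genes moved together across the measured testes. These shares therefore need not hold for the members, and in the measured WT comparison no gene passed. Alternatives were other scalings, filters on dim genes, other cluster rules, array weights, each array left out, other WT controls and the replicate number as a block. The replicate numbers 1 to 3 shared by KO, KI and WT of KI litters gave correlations of deviations from -0.03 to 0.16. Arrays with different numbers were not correlated as a reference, so this check cannot show whether the numbers pair the testes.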

Additional observations from a re-analysis of the deposited data

How the results depend on the processing

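Over the 8 comparisons 0 members passed in the reported fits, and in 6 of these no gene did, so a count that stays at 0 (150 alternative fits, and not in 8) says little of stability. Class medians moved by less than the spread between testes in 312 and by more in 4. None of the 4 members of smallest p in a comparison reversed in that comparison. Other named genes did reverse with an array left out. Snord49a ran from -0.185 to 0.0619 in KO against all WT, and Snora2b from -0.0723 to 0.0484 between WT litters. The number of members that passed ranged, with each array left out, from 0 to 1 for KO against all WT (1 without KO 2, or 1.37%, beside 10.5% of all genes), 0 to 1 between WT litters (1 without WT 5, or 1.37%, beside 0.225%), 0 to 2 for KO against its littermates (2 without KO 2, or 2.74%, beside 2.73%) and 0 to 3 for litter origin averaged over WT and mutants (3 without WT 5, or 4.11%, beside 4.1%, and 2 without KO 2, or 2.74%, beside 1.65%). The last was also 3 among genes above the median level (4.84%, beside 1.78%) and 2 among genes above the olfactory receptor background (2.9%, beside 0.0825%), where fewer genes are tested. With WT of the other litters as control, 3 members were lower in KO, Snora34 (-0.69), Snora15 (-0.68) and Snord118 (-0.54), with limma adjusted p of 0.0278, 0.0266 and 0.0455, which is 4.11% of members beside 6.06% of all genes called in that fit, and the Snora median was -0.064. That control differs from KO in litter origin too. With each array left out, the Snora median ranged from -0.0322 to 0.0967 for KI against KO and from -0.00192 to 0.15 for KO against its littermates, and the Snord median of the difference of mutant effects from -0.35 to -0.15.

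With the replicate block on the 9 KO, KI and KI-litter WT arrays, 0 members passed in KI against KO, where 247 genes passed against 0 on the same arrays without it, a fit added after the data were seen. The Snord median was -0.12 in both, and the block changed no call of a member there or for KI against its littermates (Snord median -0.16). The number of arrays and the signal over background limit the precision, and 4 members were at or under that background.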
